A study of Homo sapiens with 8 samples.

Results

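The response of DU145 cells to the ligand DY131 was compared between cells without and with the receptor Esrrb, gene by gene. DU145 is an established human prostate cancer cell line. All 8 libraries of the series entered the comparison. They form 4 groups of 2 biological replicates: DU145-pc3.1 cells, which carry the empty vector pcDNA3.1-zeo, DU145-Esrrb cells, which carry the same vector with Esrrb, and both kinds of cells treated with 3 µM DY131. Each kind is a pool of transfected cells kept under Zeocin selection, and the 4 groups share that background. The untreated cells are the vehicle group of the series. The length of the DY131 treatment is not given in the sources used here. For each gene, the log2 change with DY131 in DU145-pc3.1 cells was subtracted from the log2 change with DY131 in DU145-Esrrb cells, and the remainder is called the interaction below. The count table lists 23391 genes, and the 13856 that reached 1 cpm (1 count per 1000000 counts of the library) in 2 libraries or more were tested.

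Esrrb is an orphan nuclear receptor of the estrogen related receptor family. It binds DNA as a monomer at an extended single site and activates genes without a natural hormone, by recruiting coactivators. Its relatives Esrra and Esrrg are best known for genes of mitochondrial respiration, and Esrrb is known for the pluripotency network of stem cells. DY131 is a synthetic agonist of Esrrb and Esrrg, used to switch on their ligand-dependent activity.

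In the libraries, ESRRB had 3 and 0 reads in DU145-pc3.1 cells, 0 and 1 in DU145-pc3.1 + DY131 cells, 104 and 99 in DU145-Esrrb cells, and 105 and 143 in DU145-Esrrb + DY131 cells. ESRRG had 1 read in total, in a DU145-Esrrb + DY131 library. Total counts of the libraries lay between 7858743 and 11551690, and the 2 DU145-Esrrb + DY131 libraries were the shallowest. The epithelial markers KRT8, KRT18, KRT19, EPCAM and CDH1 were at 60.8 cpm or more in every library. The luminal prostate markers KLK2, KLK3 and FOLH1 had no read in any library. Of 12 markers of fibroblasts, immune, endothelial and muscle cells, 3 passed the filter, and LYZ, with 2 to 16 reads a library, was called lower for the interaction by edgeR but not by DESeq2. Replicates had a Spearman correlation over genes of 0.997 in 3 of the groups and of 0.994 in DU145-pc3.1 + DY131, where their counts differed by a chi-square per degree of freedom of 7.34, against 1.30 to 2.67 in the other groups. DU145-pc3.1 + DY131 enters every interaction. In bulk samples, fewer cells with a transcript and less of it in each cell cannot be told apart.

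The response to DY131 differed between the cells for 870 genes, 6.28% of those tested, with 213 (1.54%) higher and 657 (4.74%) lower in DU145-Esrrb cells than the response in DU145-pc3.1 cells would give. A gene is called at an adjusted p under 0.05 (edgeR quasi-likelihood test, Benjamini-Hochberg over all tested genes) and an absolute log2 value of at least 1. With the adjusted p alone, 4674 genes passed, 2234 higher and 2440 lower, around a median interaction of 0.00 over all tested genes. At an unadjusted p under 0.05, 2956 of the 13856 genes were higher and 3083 lower, which is the background for counts of gene lists at that threshold. DESeq2 called 630 genes, 124 higher and 506 lower, of which 628 were among the 870. Without DU145-pc3.1 + DY131 replicate 1, edgeR called 343 higher. Of the 870, 494 remained called when each library was left out in turn. The response itself comprised 580 genes (4.19%) in DU145-pc3.1 cells, with 142 (1.02%) higher and 438 (3.16%) lower. In DU145-Esrrb cells it comprised 1666 genes (12.0%), with 413 (2.98%) higher and 1253 (9.04%) lower. Esrrb alone, in untreated cells, changed 80 genes (0.577%), 25 (0.180%) higher and 55 (0.397%) lower, but 125 and 123 genes without DU145-pc3.1 + DY131 replicate 1 or 2, and 46 to 51 without any 1 of the 4 untreated libraries. Esrrb in DY131-treated cells changed 1137 genes (8.21%), 298 (2.15%) higher and 839 (6.06%) lower.

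The 870 genes were separated by which of the responses was called. In 612 genes, the response was new with Esrrb: it was called in DU145-Esrrb but not in DU145-pc3.1 cells. In 45 genes the response was lost: it was called in DU145-pc3.1 but not in DU145-Esrrb cells. Another 6 genes had the same loss but were already at its end, since Esrrb alone moved them in the direction DY131 moved them in DU145-pc3.1 cells. Lost responses and those already at their end came to 92 genes without DU145-pc3.1 + DY131 replicate 1. In 14 genes both responses were called with opposite directions, and in 18 with the same direction and a different size. In the remaining 175 genes neither response reached the thresholds on its own. These classes follow from the thresholds, so a gene may stand just outside one of them. A response that was not called can still be a smaller change. With no response taken as an absolute log2 change under 0.5, 504 genes were new and 36 lost or already at their end.

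**Figure D1:**
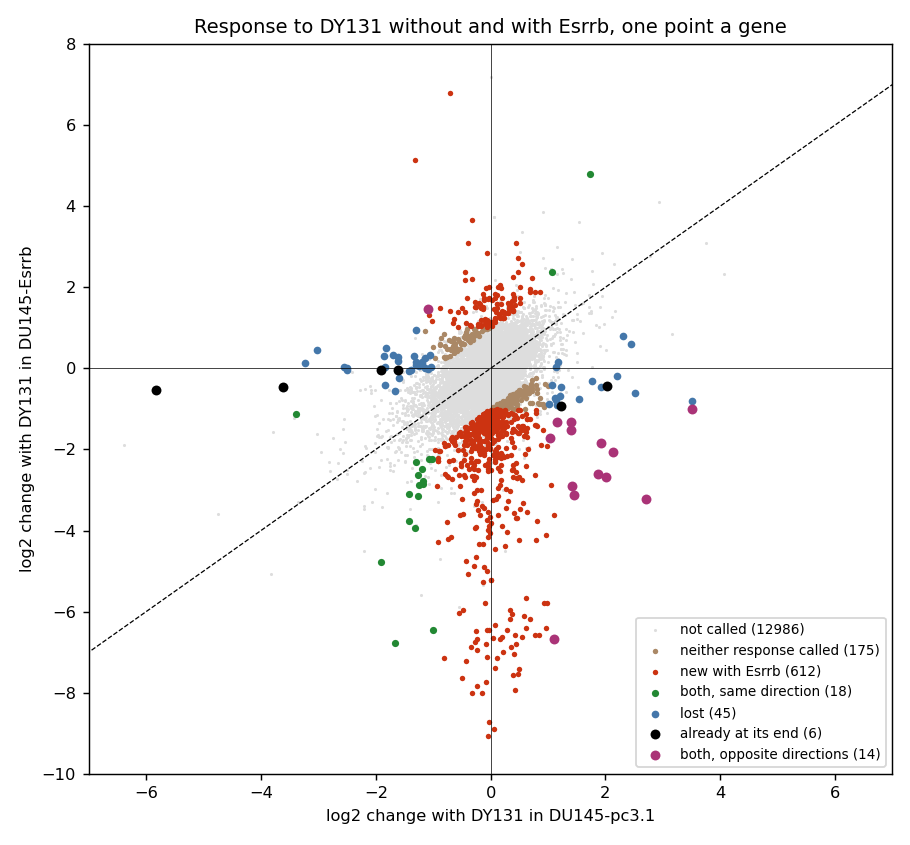
Log2 change with DY131 in DU145-pc3.1 cells (horizontal) and in DU145-Esrrb cells (vertical), 1 point for each of 13856 genes, coloured by class with the number of genes in each; the dashed line marks equal responses. New responses (612) spread along the vertical axis, mostly downward, while lost responses (45) and the 6 already at their end lie along the horizontal axis.

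DSG3 had the largest interaction among the genes already at their end. It encodes desmoglein 3, a cadherin of the desmosomes that join epithelial cells (NM_001944, chromosome 18, 31447795 to 31478702 on GRCh38 in GENCODE 29). In the DU145-pc3.1 libraries DSG3 was at 34.9 and 48.0 cpm, against 0.40 to 1.03 cpm in all other 6 libraries. DY131 alone and Esrrb alone each lowered it from the level of the untreated control to near the floor, and adding DY131 to DU145-Esrrb cells left it at 0.65 and 0.57 cpm. Its log2 change was -5.82 with DY131 in DU145-pc3.1 cells, -5.54 with Esrrb alone, and -0.53 with DY131 in DU145-Esrrb cells, an interaction of 5.29 ± 0.90 (SE; edgeR adjusted p = 0.00042). Of the 11 tested desmosome genes, DSG3 was the 1 called gene (9.09%, against 6.28% of all tested genes), with a median interaction of 0.06.

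AOX1, which encodes aldehyde oxidase, followed the same course. It was at 64.2 and 72.5 cpm in DU145-pc3.1 cells, 5.43 and 6.81 in DU145-Esrrb cells, 3.74 and 7.44 in DU145-pc3.1 + DY131 cells, and 4.69 and 4.18 in DU145-Esrrb + DY131 cells. The 6 libraries with Esrrb, DY131 or both overlapped, and all lay far under the untreated control. The interaction of AOX1 was 3.16 ± 0.36 (edgeR adjusted p = 1.16e-05). BMF, a pro-apoptotic BH3-only protein, had an interaction of 1.87 ± 0.43, from 21.1 and 13.3 cpm in DU145-pc3.1 cells to 3.77 to 10.4 cpm in the other libraries. CXCR4, a chemokine receptor, was the fourth gene lowered by either, at 5.44 and 4.31 cpm in the control and 1.10 to 2.72 cpm elsewhere. CAND2 and SH3RF3 were the 2 genes raised by either Esrrb or DY131 with no called response to DY131 in DU145-Esrrb cells: SH3RF3 was at 1.15 and 1.14 cpm in the DU145-pc3.1 libraries, 3.57 and 2.67 with Esrrb, 2.90 and 2.48 with DY131, and 1.56 and 1.70 with both. With both, SH3RF3 thus lay between the control and the cells with either alone, and its change of -0.93 with DY131 in DU145-Esrrb cells was just under the fold threshold. CXCR4, CAND2 and SH3RF3 fall outside the naming rule given with the methods and are named because the class has 6 genes. Of the 6, 4 remained called without each library in turn.

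F13A1, the A subunit of coagulation factor XIII, responded to DY131 in opposite directions (NM_000129, chromosome 6, 6144085 to 6321013). It was at 39.5 and 38.7 cpm in DU145-pc3.1 cells and 16.4 and 20.2 cpm with DY131. In DU145-Esrrb cells it was at 6.62 and 5.52 cpm, and DY131 brought it to 16.2 and 17.2 cpm. The 4 DY131-treated libraries thus overlapped, between the high control and the low DU145-Esrrb libraries. F13A1 fell by 1.10 in DU145-pc3.1 cells and rose by 1.45 in DU145-Esrrb cells on the log2 scale, an interaction of 2.55 ± 0.19 (edgeR adjusted p = 1.58e-07). F13A1 remained called under the 20 alternatives that held it.

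TKTL1, a transketolase-like protein of the pentose phosphate pathway, was the mirror image (NM_001145933, chromosome X, 154295671 to 154330350). It was at 3.05 and 2.20 cpm in DU145-pc3.1 cells, 7.10 and 6.65 with DY131, 9.51 and 10.1 with Esrrb, and 3.52 and 4.30 with both. Both single changes raised it, and DY131 lowered it in DU145-Esrrb cells to near the untreated control. The interaction of TKTL1 was -2.71 ± 0.30 (edgeR adjusted p = 8.42e-06). Of 30 tested genes of glycolysis and the pentose phosphate pathway, TKTL1 was the 1 called (3.33%, against 6.28% of all tested genes).

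F13A1 was the 1 gene of the 14 with opposite responses that rose in DU145-Esrrb cells, while the other 13 rose with DY131 in DU145-pc3.1 cells and fell in DU145-Esrrb cells. ESRP1, an epithelial splicing regulator, was at 3.82 and 2.99 cpm in the control, 8.79 and 16.2 with DY131, 1.61 and 1.47 with Esrrb, and 0.39 and 0.11 with both. In DU145-Esrrb cells it had 35 reads over the 2 untreated libraries and 4 with DY131, a ratio of 0.157 (exact 95% interval 0.0405 to 0.439, counting error only). COL4A5, a chain of basement membrane collagen, was at 0.95 and 0.62 cpm in the control, 3.83 and 2.48 with DY131, 6.37 and 4.51 with Esrrb and 1.17 and 0.57 with both. KIF1A, a motor of axonal transport, was at 1.53 and 1.23 cpm in the control, 3.93 and 8.23 with DY131, 1.87 and 1.75 with Esrrb and 0.39 and 0.45 with both. F5, coagulation factor V, had 28 reads over the DU145-Esrrb libraries and 0 with DY131, so that the ratio was at most 0.193 (exact 95% interval, counting error only). BMP7 and GPC4, a bone morphogenetic protein and a glypican, each had 1 read in the 2 DU145-Esrrb + DY131 libraries. GPC4 passed the filter on low counts through the DU145-pc3.1 + DY131 libraries alone, where it is high. Without each library in turn, 13 of the 14 remained called. COL4A5, KIF1A, F5, BMP7 and GPC4 were chosen for naming after their values were seen.

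**Figure D2:**
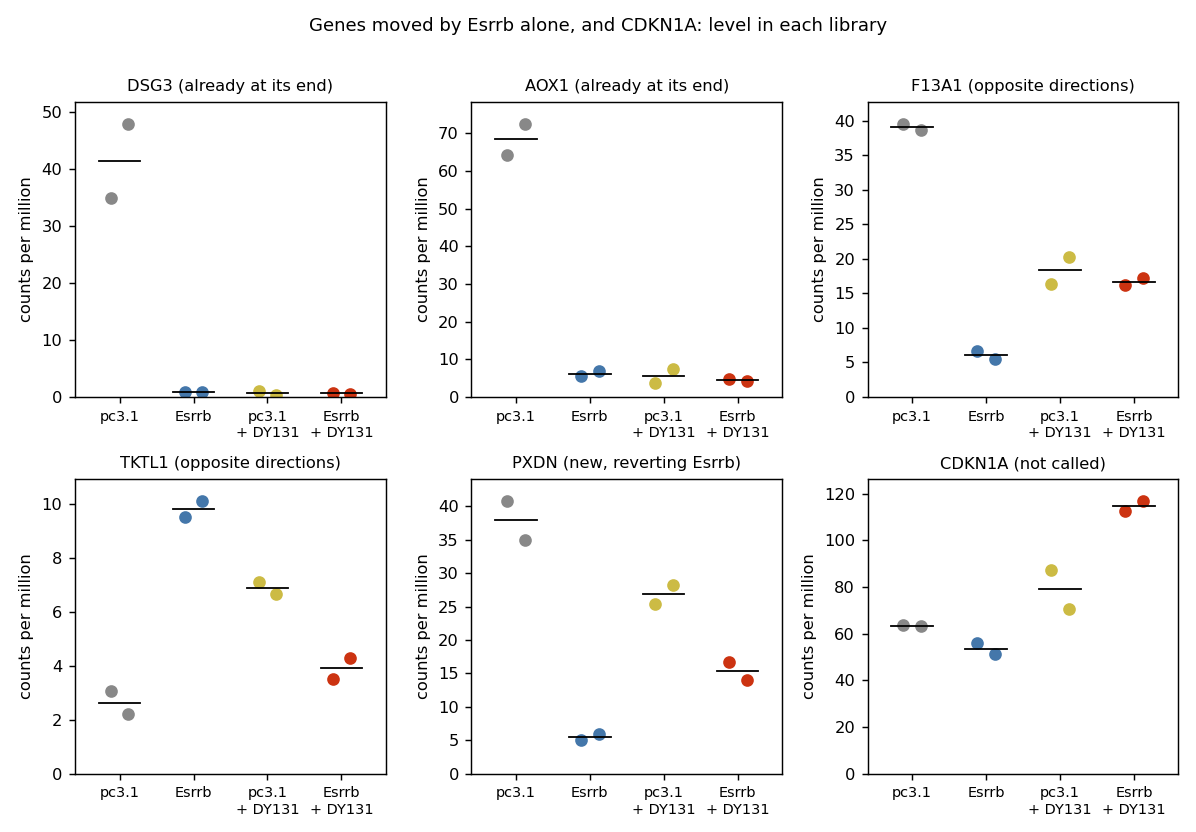
Level in cpm (vertical) of 6 genes in each library, 2 points a group with their mean as a line, for DU145-pc3.1 and DU145-Esrrb cells without and with DY131. DSG3 and AOX1 are high in the DU145-pc3.1 libraries and low in the other 6, F13A1 meets at 16.2 to 20.2 cpm in the 4 treated libraries, and CDKN1A is highest in the 2 DU145-Esrrb + DY131 libraries.

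In 6 of the 612 genes with a new response, Esrrb alone had moved the gene and DY131 moved it back. PXDN, a peroxidase of the extracellular matrix, was at 40.8 and 35.0 cpm in DU145-pc3.1 cells, 5.01 and 5.98 with Esrrb, and 16.7 and 14.0 with Esrrb and DY131. DY131 in DU145-pc3.1 cells left PXDN at 25.4 and 28.3 cpm, a log2 change of -0.50 that was under the fold threshold, and the interaction was 1.98 ± 0.20 (edgeR adjusted p = 4.17e-06). SPNS2, a transporter that exports sphingosine-1-phosphate, returned further. It was at 16.6 and 17.8 cpm in DU145-pc3.1 cells, 18.3 and 18.8 with DY131, 5.35 and 5.24 with Esrrb, and 14.7 and 15.1 with both, an interaction of 1.38 ± 0.19.

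SEMA3F, a secreted semaphorin, did so from above. It was at 7.44 and 6.60 cpm in DU145-pc3.1 cells, 6.54 and 7.54 with DY131, 17.0 and 16.9 with Esrrb, and 6.65 and 7.46 with both, an interaction of -1.26 ± 0.23. Its 6 libraries other than untreated DU145-Esrrb overlapped. SDC2, a cell surface heparan sulfate proteoglycan, was at 5.09 and 4.87 cpm with Esrrb and at 1.81 to 2.60 cpm in the other 6 libraries (interaction -1.51 ± 0.37). DESeq2 did not call SDC2. CDHR1, a cadherin-related protein, was at 3.99 and 3.22 cpm with Esrrb, 1.04 and 0.90 with Esrrb and DY131, and 1.24 to 2.88 cpm in DU145-pc3.1 cells with or without DY131, so it ended under both (interaction -2.77 ± 0.48). LOC441454 also fell back, from 4.07 and 5.15 cpm to 1.04 and 1.36 cpm, with an interaction of -2.90 ± 0.41. In DU145-pc3.1 cells DY131 raised LOC441454 from 1.72 and 2.38 cpm to 4.11 and 4.07 cpm. That log2 change of 0.99 was just under the fold threshold. All 6 remained called without each library in turn. The 1 gene in which DY131 carried the Esrrb change further in the same direction was ARSD, which did not remain called without each library in turn.

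Of the 80 genes changed by Esrrb alone, 24 were called for the interaction, beside 870 of all 13856 tested genes (6.28%). In 18 of these 24 the interaction had the opposite sign to the Esrrb change. Untreated DU145-Esrrb libraries enter both values with opposite signs, so this count is given as a description. Of the 15 genes that the study lists as changed by Esrrb and again by DY131, 4 were called higher and 4 lower, with a median interaction of -0.22. LOC100506599 was the eighth, with a new response and an interaction of 1.78 ± 0.42. The list was chosen on these same samples. Of the other 7, TAGLN (transgelin, an actin-binding protein) had 35.4 and 33.5 cpm in the control, 56.4 and 89.9 with DY131, 16.3 and 14.1 with Esrrb and 57.6 and 61.7 with both. Its interaction of 0.89 ± 0.24 was under the fold threshold, and it was called when DU145-Esrrb replicate 1 (1.00) or DU145-pc3.1 + DY131 replicate 2 (1.26) was left out. ZCWPW2, a zinc finger protein, had 1.53 and 1.14 cpm in the control, 51.9 and 47.5 with Esrrb and 22.2 and 25.0 with both. Its interaction was -0.93 ± 0.39 (edgeR adjusted p = 0.079) and passed the thresholds (-1.24) without DU145-pc3.1 + DY131 replicate 2. WDR52 had 1.12 ± 0.47 (edgeR adjusted p = 0.077) and was called (1.53) without DU145-pc3.1 + DY131 replicate 1. PADI2, an arginine deiminase, and RARRES3 had interactions of -0.07 ± 0.25 and -0.22 ± 0.46. The interferon-induced genes OASL and DDX60 had -0.59 ± 0.27 and -0.80 ± 0.36, and DDX60 was called (-1.06) without DU145-pc3.1 replicate 1.

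CDKN1A encodes p21, the cyclin-dependent kinase inhibitor that arrests the cell cycle downstream of p53 (NM_000389, chromosome 6, 36676460 to 36687339). It was at 63.7 and 63.3 cpm in DU145-pc3.1 cells and 87.5 and 70.8 cpm with DY131. In DU145-Esrrb cells it was at 56.1 and 51.2 cpm, and at 113 and 117 cpm with DY131. The 2 DU145-Esrrb + DY131 libraries lay above all others. CDKN1A rose by 1.10 ± 0.09 on the log2 scale with DY131 in DU145-Esrrb cells, and its change in DU145-pc3.1 cells was 0.32 ± 0.09. The interaction was 0.78 ± 0.13 (edgeR adjusted p = 0.00026), so the difference passed the test but stayed under the fold threshold. In the list of 26 CDK inhibitors, D cyclins and p53 targets, 0 genes were called by edgeR, DESeq2 or limma-voom, while 10 were higher and 0 lower at an unadjusted p under 0.05 (median interaction 0.20, and 0.08 corrected for the junction share described below). The other known Esrrb targets named by the study were KLF4, with an interaction of 0.89 ± 0.19, and MYC, with 0.15 ± 0.09, both under the fold threshold, while CYP19A1, also named there, did not pass the filter. KLF4 was at 17.1 and 14.8 cpm in DU145-pc3.1 cells, 16.2 and 14.2 with DY131, 9.25 and 9.56 with Esrrb, and 17.2 and 16.1 with both.

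Among 16 tested genes of the ERR family, its partners and coregulators, 0 were called for the interaction by edgeR, DESeq2 or limma-voom. At an unadjusted p under 0.05, 4 of the 16 were higher and 1 lower, near the background on the higher side (2956 of 13856), with a median of -0.04. NRIP1, a corepressor of nuclear receptors, had an interaction of 0.50 and SP1 one of 0.31. EP300, a coactivator, had -0.30, and NR0B1, a corepressor, -0.70 (edgeR adjusted p = 0.40). ESRRA had -0.04. The interaction of ESRRB itself was 2.05, with an adjusted p of 0.30, and rests on the few reads of the DU145-pc3.1 cells.

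The nuclear receptor's element was looked for in the RefSeq promoters of the genes (GRCh38.p14, 250 bases before to 50 after the start). The motif TCAAGGTCA, on either strand, was in 98 of 27305 promoters (0.359%), and the shorter AAGGTCA that it contains in 1083 (3.97%). Among the 9630 tested genes with a promoter, 17 (0.177%) held the longer and 232 (2.41%) the shorter motif. Of the 870 called genes, 523 had a promoter in the table, of which 1 (0.191%) held the longer motif and 24 (4.59%) the shorter. Among the new responses, 2 of 54 higher and 18 of 306 lower genes (5.88%) held the shorter motif, and among the 35 lost or already at their end 1 did. The promoter of SPINK5, a serine protease inhibitor of epithelia, is shown because it is the 1 that holds the longer motif, and that of CDKN1A for comparison, since it holds neither. SPINK5 lies at chr5:148063730-148064029 and CDKN1A at chr6:36678464-36678763, both on the plus strand, with any match in capitals.
SPINK5: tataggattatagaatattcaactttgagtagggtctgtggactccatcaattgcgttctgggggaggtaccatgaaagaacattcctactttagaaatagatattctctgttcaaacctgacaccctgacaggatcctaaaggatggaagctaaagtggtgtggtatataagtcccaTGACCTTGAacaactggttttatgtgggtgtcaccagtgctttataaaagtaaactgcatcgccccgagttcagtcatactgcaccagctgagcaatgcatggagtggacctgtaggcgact
CDKN1A: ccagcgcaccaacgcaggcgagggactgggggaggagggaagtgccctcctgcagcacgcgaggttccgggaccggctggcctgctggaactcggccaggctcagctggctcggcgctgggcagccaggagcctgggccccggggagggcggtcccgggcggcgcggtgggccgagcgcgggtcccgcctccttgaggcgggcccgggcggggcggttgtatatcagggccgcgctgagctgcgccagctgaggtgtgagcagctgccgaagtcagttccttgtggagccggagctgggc
The match in SPINK5 is on the minus strand and begins 72 bases before the start. SPINK5 had 27 reads over the DU145-Esrrb libraries and 3 with DY131, a ratio of 0.152 (exact 95% interval 0.0296 to 0.495, counting error only). A match is a description of these letters, and receptor binding was not measured. The CDKN1A window does not cover the start at 36676460 given above for the gene. The study cites earlier work in which Esrrb bound an element in the CDKN1A promoter.

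Of the 51 genes whose response was lost or already at its end, 19 rose and 32 fell with DY131 in DU145-pc3.1 cells. TPM1, the actin-binding protein tropomyosin 1, was at 86.7 and 86.1 cpm in DU145-pc3.1 cells and 191 and 192 with DY131. In DU145-Esrrb cells it was at 77.1 and 74.9 cpm and, with DY131, at 40.5 and 40.4 cpm. The log2 change of -0.91 was under the fold threshold, which places TPM1 among the lost responses at the edge of those with opposite directions, and the interaction was -2.06 ± 0.09 (edgeR adjusted p = 2.99e-10).

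CXCL5, a chemokine that attracts neutrophils, was at 5.82 and 6.08 cpm in DU145-pc3.1 cells, 21.1 and 19.5 with DY131, 11.2 and 11.1 with Esrrb, and 11.0 and 7.35 with both (interaction -2.07 ± 0.24). ABCC2, an export pump for conjugates, was at 4.39 and 4.75 cpm in the control, 14.4 and 12.4 with DY131, 7.38 and 6.62 with Esrrb, and 4.04 and 4.30 with both (interaction -2.29 ± 0.26). In both genes the libraries of DU145-pc3.1 + DY131 lay above all others. RBP7, a retinol-binding protein, and INA, a neuronal intermediate filament, had interactions of -1.89 ± 0.23 and -1.50 ± 0.34. The log2 change of RBP7 with DY131 was 1.01 in DU145-pc3.1 cells and -0.88 in DU145-Esrrb cells. The second was under the fold threshold, so RBP7 too lies at the edge of the opposite directions. INA rose from 4.58 and 3.43 cpm to 19.1 and 20.5 cpm in DU145-pc3.1 cells and from 1.61 and 1.93 cpm to 3.26 and 2.94 cpm in DU145-Esrrb cells, where the log2 change of 0.80 went the same way but was under the fold threshold.

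Other transcripts fell with DY131 in DU145-pc3.1 cells and had no called response in DU145-Esrrb cells. GABARAPL1, an autophagy protein of the Atg8 family, was at 25.0 and 25.4 cpm in DU145-pc3.1 cells and 10.1 and 11.1 with DY131. In DU145-Esrrb cells it was at 24.3 and 23.6 cpm and at 26.1 and 23.9 cpm with DY131, an interaction of 1.31 ± 0.15 (edgeR adjusted p = 1.78e-05). RNF208, a ring finger protein, was at 5.05 and 4.86 cpm in DU145-pc3.1 + DY131 cells and at 12.0 to 14.0 cpm in all other libraries (interaction 1.36 ± 0.21). ARRDC4, an arrestin family protein, was at 6.26 and 6.84 cpm there and at 11.0 to 15.5 cpm in the others (interaction 1.40 ± 0.21). Its paralog TXNIP, which restrains glucose uptake, was at 79.9 and 54.7 cpm in DU145-pc3.1 cells and fell to 6.45 and 6.35 cpm. In DU145-Esrrb cells TXNIP fell from 70.8 and 37.5 cpm to 22.7 and 27.0 cpm, a smaller change in the same direction (interaction 2.26 ± 0.39). That response was called too, so TXNIP belongs to the genes with both responses in the same direction and not to the lost responses.

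FGB, the fibrinogen beta chain, was raised by Esrrb alone and lowered by DY131 in DU145-pc3.1 cells only. It was at 2.39 and 2.38 cpm in DU145-pc3.1 cells, 1.21 and 0.69 with DY131, 9.25 and 9.29 with Esrrb, and 18.4 and 17.2 with both. The increase with DY131 in DU145-Esrrb cells was 0.94 on the log2 scale, just under the fold threshold, and the interaction was 2.23 ± 0.36. IFITM1, an interferon-induced membrane protein, had 10 reads over the untreated DU145-Esrrb libraries and 8 with DY131, and an interaction of 3.37 ± 0.99 that was no longer called without 1 of the DU145-Esrrb + DY131 libraries (3.07). DESeq2 did not call it (adjusted p = 0.097), and it passed the filter through the untreated DU145-pc3.1 libraries alone, where it is high. It shares 42.3% of its 50-base windows with other transcripts. Of the 45 lost responses, 16 remained called without each library in turn.

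**Figure D3:**
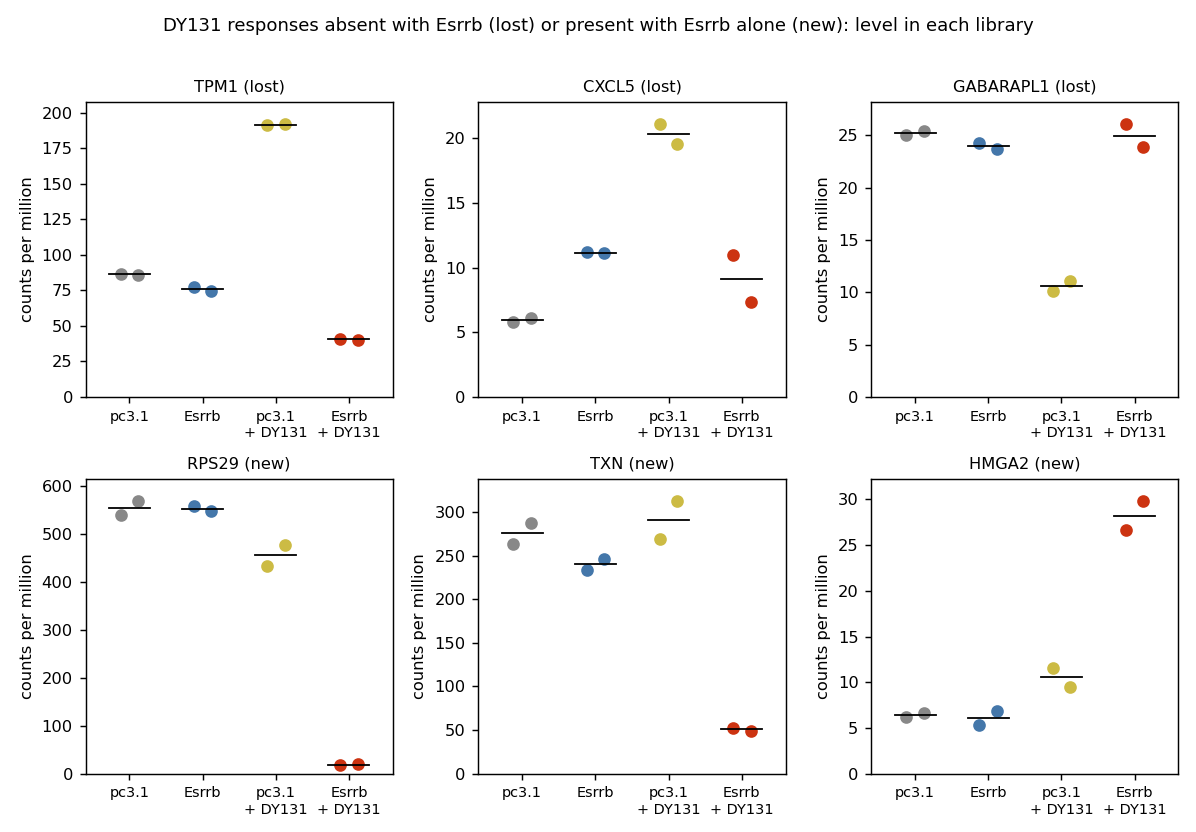
Level in cpm (vertical) of 6 genes in each library, 2 points a group with their mean as a line. TPM1, CXCL5 and GABARAPL1 stand apart in the 2 DU145-pc3.1 + DY131 libraries (for TPM1 at 191 and 192 cpm), whereas RPS29, TXN and HMGA2 stand apart in the 2 DU145-Esrrb + DY131 libraries.

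Of the 612 genes with a new response, 497 had a lower and 115 a higher interaction. In 603 of them both DU145-Esrrb + DY131 libraries lay outside the range of the other 6 libraries, as they did for 49.9% of all tested genes. The class was picked on these same libraries, so this count is given as a description. RPS29, a protein of the small ribosomal subunit, was at 538 and 568 cpm in DU145-pc3.1 cells, 433 and 477 with DY131, 558 and 546 with Esrrb, and 17.5 and 20.01 with both. The interaction of RPS29 was -4.59 ± 0.11 (edgeR adjusted p = 2.52e-13). RPS21, of the same subunit, was at 75.1 to 98.7 cpm in 6 libraries and had 3 reads in each DU145-Esrrb + DY131 library, a ratio to untreated DU145-Esrrb cells of 0.00425 (exact 95% interval 0.00156 to 0.00926, counting error only). FKBP1AP1, a pseudogene, and NARR had 3 and 1 reads in the DU145-Esrrb + DY131 group against 440 and 232 in untreated DU145-Esrrb cells. In all, 13 genes at a mean of 5 cpm or more in each of the other 3 groups were under 1 cpm in both DU145-Esrrb + DY131 libraries, and 0 genes were so in the DU145-pc3.1 + DY131 libraries.

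TXN, the redox protein thioredoxin, was at 234 to 313 cpm in 6 libraries and at 52.4 and 49.3 cpm in DU145-Esrrb + DY131 cells (interaction -2.32 ± 0.11). NUCB2, a calcium-binding protein and the precursor of nesfatin, was at 28.2 to 44.7 cpm in the others and 10.2 and 11.3 cpm there (interaction -1.91 ± 0.14). NIT2, an amidase, was at 25.3 to 33.4 cpm in the others and 10.6 and 9.72 cpm there (interaction -1.76 ± 0.17). Both groups of libraries were clear of each other in these 3 genes.

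Higher new responses were fewer. HMGA2, an architectural chromatin protein, was at 6.20 and 6.60 cpm in DU145-pc3.1 cells, 11.6 and 9.52 with DY131, 5.35 and 6.81 with Esrrb, and 26.6 and 29.8 with both (interaction 1.5 ± 0.23). Its log2 change of 0.72 with DY131 in DU145-pc3.1 cells was under the fold threshold. PRG4, the lubricant lubricin, was at 14.2 and 15.03 cpm in DU145-Esrrb + DY131 cells and 3.14 to 5.81 cpm elsewhere (interaction 2.06 ± 0.29). CLCN4, a chloride and proton exchanger, was at 14.7 and 12.5 cpm against 3.55 to 6.62 cpm elsewhere (interaction 1.77 ± 0.26). SRSF10, a splicing factor, was at 11.7 and 9.16 cpm against 1.72 to 3.18 cpm elsewhere (interaction 1.87 ± 0.41). PPP1R3E, a phosphatase subunit for glycogen metabolism, had 16.3 and 17.5 cpm against 4.96 to 9.16 cpm (interaction 1.58 ± 0.30). NBPF14 and NBPF16 rose too, with interactions of 1.89 ± 0.27 and 1.81 ± 0.16, but NBPF14 shares 91.7% of its windows with other genes of its multicopy family. How reads that match several genes were counted is not given in the sources used here.

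A property of the transcripts moved with the interaction. The junction share is the percent of 50-base windows of a transcript, the length of a read, that cross an exon junction. Weighted by counts it was 15.5% in both DU145-Esrrb + DY131 libraries and 17.0 to 17.1% in the other 6. Over 13608 genes with a value, Spearman's rho between junction share and interaction was -0.46, where the genes share the same 8 libraries. For the DY131 change in DU145-pc3.1 cells rho was 0.01, and for Esrrb alone it was -0.04. The median interaction went from 0.35 in genes with at most 2% of junction windows to -0.74 in genes with over 40%, and 31.8% of the 283 genes in the last group were called. The median junction share was 27.7% in the new responses with a lower interaction, 5.99% in those with a higher one, 8.55% in the lost responses and 14.4% over all tested genes. This property is a feature of the DU145-Esrrb + DY131 group as a whole, so it and the group cannot be told apart.

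With a smooth correction for junction share in every library, 609 genes were called for the interaction (4.40%), 178 (1.28%) higher and 431 (3.11%) lower, of which 521 were among the 870. Of the 612 new responses 396 were still called, as were 35 of the 51 lost or already at their end, 6 of the 6 that reverted Esrrb, and DSG3, AOX1, F13A1 and TKTL1 (5.26, 3.62, 2.61 and -2.53). HMGA2 (4.07% junction windows, 1.27) kept its call. So did RPS21 (73.6% junction windows), whose interaction went from -7.60 to -6.09. ATP5I (46.5%, -4.12 corrected) and USMG5 (46.7%, -1.70 corrected) also kept theirs. The share is that of 1 annotated transcript a gene, the longest of those matched to it. That transcript is 7062 bases long for RPS29 and 7289 for NIT2. For RPL36A and NDUFA11, described below, it is 2240 and 2406 bases long. Which transcript the cells held was not tested. MKNK2, a kinase that phosphorylates eIF4E and whose response was larger with Esrrb, had -1.01 as fitted and -0.44 corrected, and was not called after the correction. It was also not called without DU145-pc3.1 replicate 2 (-0.92), DU145-Esrrb replicate 1 (-0.88), DU145-pc3.1 + DY131 replicate 1 (-0.98) or the second DU145-Esrrb + DY131 column (-0.89). Among 4283 genes with under 10% of junction, shared and repeated windows, 94 were called higher and 101 lower in the fit over all genes, 4.55% of them. A fit of these genes alone, with the scaling recomputed and added after seeing the data, called 30 higher and 137 lower. Transcripts with MIR, SNOR, SCARNA, RNU or MTRNR2L symbols, which are short or multicopy, were called lower in 35 and higher in 2 of 56 cases. The part of transcript type in these values was not tested.

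**Figure D4:**
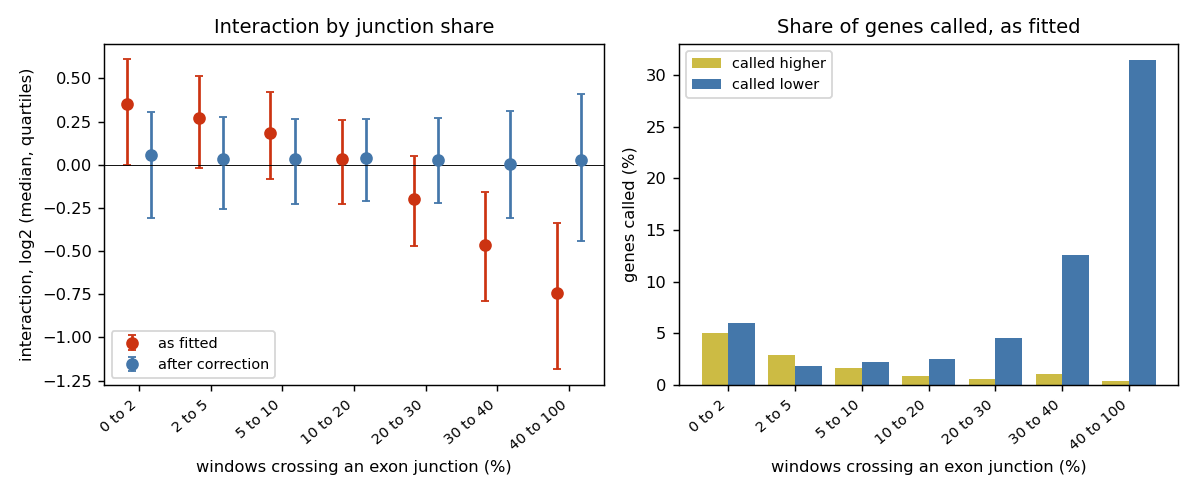
Left, interaction (log2, vertical) by the percent of 50-base windows that cross an exon junction (horizontal), as medians with quartiles, as fitted and after the correction. Right, percent of genes called higher and lower in the same bins as fitted. The median falls from 0.35 to -0.74 across the bins as fitted, and 31.8% of genes in the last bin are called.

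Gene groups were then described by their counts of called members beside the median of 0.00 over all genes, of which 1.54% were called higher and 4.74% lower. Of 77 tested cytosolic ribosomal proteins, 20 were called lower and 0 higher, with a median interaction of -0.46. DESeq2 and limma-voom also called 0 higher, and 8 were higher and 58 lower at an unadjusted p under 0.05 (2956 and 3083 of 13856 over all genes). RPL12 (-3.10 ± 0.09) and RPL36A (-4.18 ± 0.16) had new responses, and RPL12 shares 56.5% of its windows with other transcripts, pseudogenes among them. Corrected for junction share, RPL12 had -2.18 and RPL36A -4.41, both still called. The share used for RPL36A, 3.88%, is that of a 2240-base transcript, so its correction depends on that choice. After the junction correction 18 were called lower and 1 higher, with a median of -0.21.

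Of 74 subunits of the respiratory chain, 13 were called lower and 0 higher, with a median of -0.41 and with 12 higher and 48 lower at an unadjusted p under 0.05. ATP5I, a small subunit of ATP synthase, was at 31.3 to 37.1 cpm in 6 libraries and at 0.91 and 1.13 cpm in DU145-Esrrb + DY131 cells (interaction -4.93 ± 0.23). USMG5, also of ATP synthase, and the complex I subunits NDUFA11 and NDUFB2 had -2.52 ± 0.16, -2.12 ± 0.16 and -2.01 ± 0.15. The correction left 10 called lower and a median of -0.24. Of 34 genes of the TCA cycle and fatty acid oxidation, 4 were called lower and 0 higher (median -0.40, and -0.16 corrected). SDHB, the iron-sulfur subunit of succinate dehydrogenase, was at 67.4 to 78.8 cpm in 6 libraries and 20.9 and 26.7 cpm in the others (interaction -1.58 ± 0.14). ETFA, an electron carrier of fatty acid oxidation, was at 78.4 to 102 cpm in 6 libraries and 28.4 and 30.7 cpm in the others (-1.55 ± 0.11). SUCLG2 (-1.88 ± 0.16) and DLST (-1.87 ± 0.22) are TCA cycle enzymes, and DLST was not called after the correction (-0.85). DESeq2 and limma-voom called 0 genes higher in either list, and 3 TCA cycle genes were higher and 21 lower at an unadjusted p under 0.05.

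The replicative histones, whose transcripts are mostly without a poly(A) tail, went the other way: of 16 tested, 10 were called higher and 0 lower, with a median interaction of 1.27. At an unadjusted p under 0.05, 12 were higher and 0 lower, beside 2956 of 13856 higher over all genes. The median change with DY131 was -0.75 in DU145-pc3.1 cells and 0.55 in DU145-Esrrb cells. DESeq2 called 3 and limma-voom 9 of them higher, each with 0 lower. After the junction correction 1 was called, with a median of 0.95. HIST1H2BN and HIST2H2BF had interactions of 2.19 ± 0.61 and 2.15 ± 0.69 at group means of 0.715 to 3.01 cpm, and HIST1H2AE and HIST1H2AI had 1.87 ± 0.57 and 1.89 ± 0.70. None of these 4 was called by DESeq2. HIST1H2BN lost its call without DU145-pc3.1 replicate 1 (1.70) or the first DU145-Esrrb + DY131 column (1.87). HIST2H2BF lost it without DU145-pc3.1 replicate 2 (1.82), DU145-Esrrb replicate 1 (1.65) or the second DU145-Esrrb + DY131 column (1.88). HIST1H2AE lost it without replicate 2 of DU145-pc3.1 (1.84), of DU145-Esrrb (1.66) or of DU145-pc3.1 + DY131 (1.26), or without the first DU145-Esrrb + DY131 column (1.73). HIST1H2AI lost it without any library but DU145-pc3.1 + DY131 replicate 2, with values of 1.34 to 2.11. HIST1H2AI shares 62.3% of its windows with other histone genes.

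Cell cycle genes formed 2 lists. Of 43 genes of G1/S and DNA replication, 5 were called lower and 0 higher, with a median of -0.15 and with 4 higher and 18 lower at an unadjusted p under 0.05. After the junction correction 2 were called lower, with a median of -0.09. POLE2, a subunit of DNA polymerase epsilon, was at 38.5 to 46.8 cpm in 6 libraries and 10.3 and 11.6 cpm in DU145-Esrrb + DY131 cells (interaction -2.23 ± 0.15). Its corrected interaction was -1.38 and still called. RPA3, which binds single-stranded DNA, the ligase LIG1 and the primase PRIM1 had -1.45 ± 0.17, -1.36 ± 0.15 and -1.15 ± 0.15, and LIG1 (-0.72) and PRIM1 (-0.41) were not called after the correction. Of 44 genes of G2/M and the spindle, 1 was called lower, the kinetochore protein SPC24 (-2.09 ± 0.30), and 0 higher, with a median of -0.34 and with 2 higher and 28 lower at an unadjusted p under 0.05. The corrected median was -0.07. DESeq2 and limma-voom also called 0 higher in both lists.

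Stress and signalling genes formed several lists. DDIT3, which encodes the stress factor CHOP, was the 1 called of 35 ATF4 targets (2.86%, against 6.28% of all tested genes). It was at 36.8 and 35.0 cpm in DU145-pc3.1 cells, 22.1 and 20.1 with DY131, 30.8 and 34.6 with Esrrb, and 46.3 and 44.4 with both (interaction 1.24 ± 0.13). The median of that list was 0.32, with 18 higher and 3 lower at an unadjusted p under 0.05. Of 26 immediate early genes (7.69% called), ATF3, a stress-induced bZIP factor (1.36 ± 0.27), and DUSP4, a MAP kinase phosphatase (1.34 ± 0.17), were called higher, with a list median of 0.10 (-0.10 corrected) and with 10 higher and 2 lower at an unadjusted p under 0.05. Neither response of these 3 genes reached the thresholds alone.

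Of 28 NRF2 targets, TXN, ABCC2 and GSTM1 were called lower (list median -0.15), and GSTM1 (-2.19 ± 0.22) shares 58.5% of its windows. Of 10 AHR targets, CYP1A2 was the 1 called (list median -0.01), with 15 and 2 reads in the untreated DU145-Esrrb libraries and 0 with DY131, a ratio of at most 0.332 (exact 95% interval, counting error only). That call was lost without DU145-pc3.1 replicate 1 (-5.85), without DU145-Esrrb replicate 1 (-4.32) and without either DU145-Esrrb + DY131 library. Of 31 heat shock and ER chaperone genes, HSPA1B was called higher and HSPB8 (-1.24 ± 0.36) and DNAJB11 (-1.13 ± 0.09) lower, with a median of -0.20. HSPA1B had 0 reads in untreated DU145-Esrrb cells and 22 with DY131, a ratio of 7.52 or more (exact 95% interval, counting error only). It passed the filter through the DU145-Esrrb + DY131 libraries alone, where it is high, and shares 73.5% of its windows with its near-identical copy. HSPB8 was not called without DU145-Esrrb replicate 2 (-1.19) or without 1 of the DU145-Esrrb + DY131 libraries (-1.0), nor by DESeq2, and DNAJB11 was not called after the junction correction (-0.83). Of 31 genes of cholesterol and fatty acid synthesis, LSS was called lower (-1.12 ± 0.13, and -0.59 corrected, not called), with a median of -0.27. Of 42 interferon-induced genes, IFITM1 was higher and IFIH1 (-1.08 ± 0.25) lower, with a median of -0.22, and IFIH1 was not called without any 1 of 3 libraries (-0.99 without DU145-pc3.1 replicate 2, -0.94 without DU145-Esrrb replicate 1, -0.92 without DU145-pc3.1 + DY131 replicate 2) or after the junction correction (-0.95).

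**Figure D5:**
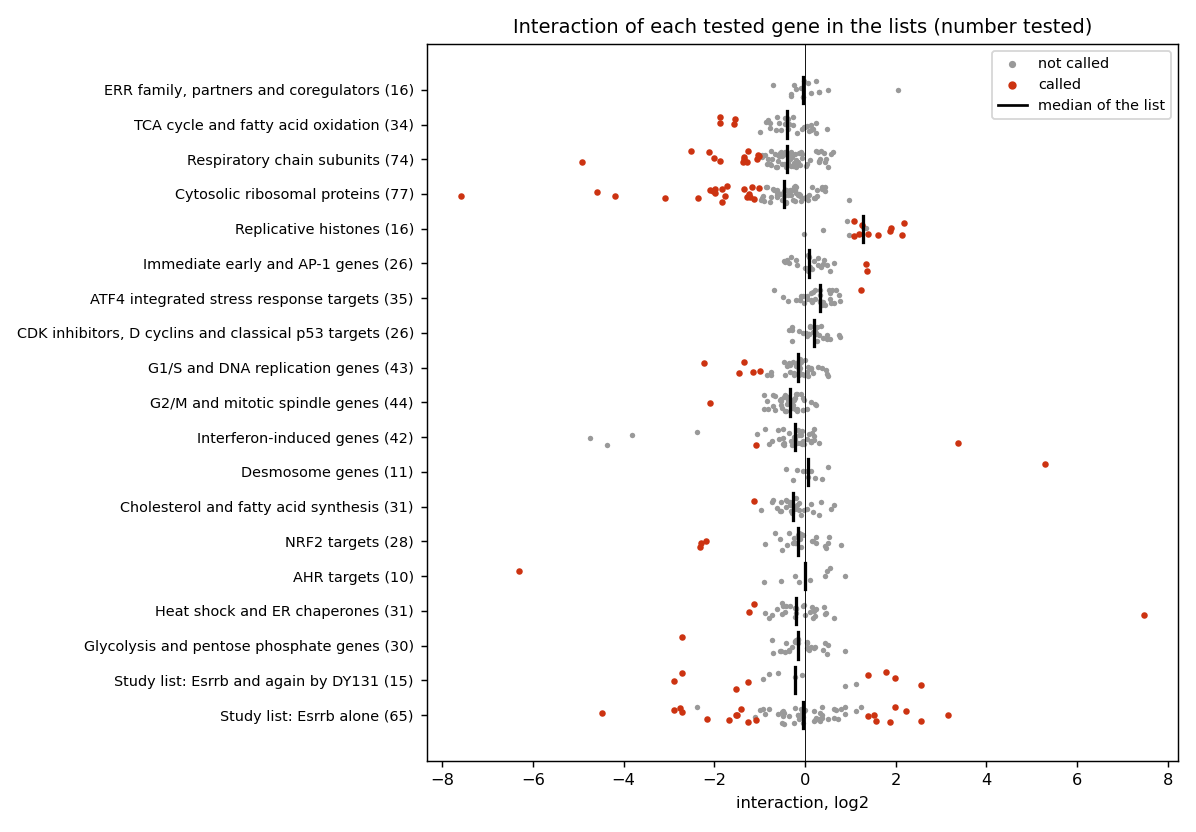
Interaction (log2, horizontal) of every tested gene of 19 lists, with the number tested in brackets, called genes in red and the median of each list as a bar. The medians lie between -0.46 for ribosomal proteins and 1.27 for replicative histones.

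In 15 of the 18 genes with both responses in the same direction, the interaction was lower. Without each library in turn 3 of the 18 remained called, and after the junction correction 8 were still called. CLIC3, a chloride channel family protein, was at 8.21 and 6.25 cpm in DU145-pc3.1 cells, 2.62 and 3.77 with DY131, 11.3 and 9.47 with Esrrb, and 1.43 and 1.58 with both (interaction -1.59 ± 0.38). ASS1, the argininosuccinate synthase of arginine synthesis, fell from 21.9 and 15.3 cpm to 6.07 and 9.52 cpm without Esrrb and from 14.6 and 11.7 cpm to 1.83 and 2.37 cpm with it. Its interaction of -1.37 ± 0.39 was not called after the junction correction (-0.60) or without 1 of the DU145-Esrrb + DY131 libraries (-1.21).

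In genes called for the interaction with both responses under the fold threshold, the class itself fixes responses of opposite sign. IGFBP3, which binds insulin-like growth factors, was at 106 and 108 cpm in DU145-pc3.1 cells, 185 and 195 with DY131, 42.4 and 44.1 with Esrrb, and 23.6 and 24.3 with both (interaction -1.68 ± 0.10). COL4A2, a basement membrane collagen chain, was at 77.8 and 76.0 cpm in the control, 157 and 150 with DY131, 88.6 and 91.3 with Esrrb, and 67.7 and 65.0 with both (interaction -1.44 ± 0.09, and -0.93 corrected, not called). The 2 libraries of DU145-pc3.1 + DY131 were the highest for both genes.

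HOXB8 and HOXB9, neighbouring homeobox genes, moved the other way. HOXB8 was at 9.64 and 7.75 cpm in DU145-pc3.1 cells, 4.39 and 4.26 with DY131, 15.8 and 18.5 with Esrrb, and 24.8 and 24.2 with both (interaction 1.51 ± 0.22). HOXB9 was at 57.1 and 67.1 cpm, 41.3 and 30.4, 82.5 and 90.8, and 130 and 123 cpm in the same order (interaction 1.34 ± 0.15). Both were lowest with DY131 alone and highest with DY131 and Esrrb.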

How the data were processed

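RNA of 2 biological replicates for each of 4 groups was made into stranded poly(A) libraries and sequenced as 50-base single reads in 1 lane. Raw counts per gene, whole numbers without normalization, were deposited by the authors, who used the FASTX-Toolkit for trimming, TopHat2 for alignment (hg18) and MULTICOM-MAP for counting. The strand setting is not given in the sources used here. The 2 DU145-Esrrb + DY131 columns could not be matched to replicate numbers, since they are headed alike.

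Counts were analysed in R 4.3.3 with edgeR 4.0.16 (TMM, quasi-likelihood test, 4 groups in 1 model, contrast of the 2 DY131 changes), and cpm use TMM-scaled totals. Adjusted p-values are Benjamini-Hochberg over 13856 genes. Fits were tested on simulated data. Transcript shares came from GENCODE 29 (GRCh38), with 1 transcript a gene, for 98.2% of tested genes. DESeq2 1.42.0, limma 3.58.1, other filters and corrections were alternatives, and Python 3.11.15 was used for figures. Members and lists were chosen with earlier results of these data known. Named genes were 4 markers, the study's 15, the 4 largest interactions per class and sign with a group mean of at least 10 cpm and at least 200 bases (no LOC or small RNA symbols), up to 4 called members a list, and, added after seeing the data, the 4 largest per sign among new and lost genes with all shares under 10%. With 2 libraries a group, p-values rest on a spread between replicates that is estimated over all 4 groups together. The same estimate is applied to DU145-pc3.1 + DY131, whose replicates differed more than those of the other groups. Values of some markers are not reported here.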

Additional observations from a re-analysis of the deposited data

Results flagged for a closer look

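The responses of the 2 kinds of cells to DY131 differed for 870 genes by the interaction test together with the fold threshold. Among the markers and the genes listed by the study, DSG3 (5.29), F13A1 (2.55), PXDN (1.98), LOC100506599 (1.78) and SPNS2 (1.38) had a higher interaction on the log2 scale. SEMA3F (-1.26), SDC2 (-1.51), TKTL1 (-2.71) and LOC441454 (-2.90) had a lower one. F13A1 and TKTL1 differed in sign as well as size, because DY131 moved them in opposite directions in DU145-pc3.1 and DU145-Esrrb cells. Groups of 2 libraries allow no test for a single outlying library.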

How the results depend on the processing

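No interaction of a named gene changed sign under an alternative where it was called, and 1594 values of named genes stayed on their side of the thresholds, 8 gained and 87 lost a call. DESeq2 called 124 genes higher for the interaction, 24 lost or already at their end and 48 for Esrrb alone. With at least 10 counts in every library, 315 genes were called for DY131 in DU145-pc3.1, 1090 for DY131 in DU145-Esrrb, 43 for Esrrb alone, 721 for Esrrb in DY131-treated cells and 31 as lost or already at their end. Without a fold threshold these comparisons gave 5185, 8128, 579 and 6983, the interaction 4674 (2234 higher, 2440 lower), with 2577 new and 665 lost or already at their end. With a log2 threshold of 1.5 they gave 186, 715, 39 and 523, the interaction 417 (74 and 343), with 304 new and 26 lost or already at their end. The junction correction and the junction and shared-window correction, the second added after seeing the data, each left 431 genes called lower. Refitting only genes with low shares, also added after seeing the data, recomputed the scaling on 4283 genes and gave 197, 387, 29 and 274, the interaction 167 (30 and 137), with 115 new and 13 lost or already at their end. Leaving out 1 library gave 752 to 1042 genes for the interaction, 171 to 343 higher, 577 to 722 lower, 535 to 666 new, 38 to 92 lost or already at their end, and 46 to 125 for Esrrb alone. The values of 343, 92 and 125 came without DU145-pc3.1 + DY131 replicate 1, and 123 for Esrrb alone without its replicate 2. No DU145-pc3.1 + DY131 library is compared for Esrrb alone, but that contrast uses the scaling and the estimate of spread of all libraries. The cause of these shifts was not tested.

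No paired analysis was possible because of the missing replicate numbers of the DU145-Esrrb + DY131 columns for the interaction. In the 6 numbered libraries, DY131 in DU145-pc3.1 changed 548 genes with the replicate block and 564 without, and same-numbered libraries had correlated deviations of 0.09, 0.02 and -0.07, so numbers were not treated as pairs. Depth limits genes at a few reads: 3 reads are 0.26 to 0.38 cpm in these libraries.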
